A study of Mus musculus with 18 samples.

Results

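The ErbB family comprises the receptor tyrosine kinases encoded by Egfr, Erbb2, Erbb3 and Erbb4, and 6 of their ligands, Egf, Tgfa, Areg, Ereg, Btc and Hbegf, were examined with them in the prostates of TRAMP mice with and without Elac2 defects. The 10 genes were taken by symbol, and each matched 1 of the 55469 gene identifiers in the tables. The ventral and lateral lobes of 18 male mice were sequenced for RNA, 3 mice for each of 3 lines at 10 and at 30 weeks of age, and every mouse was heterozygous for the TRAMP transgene, in which the probasin promoter drives SV40 T antigens in prostatic epithelium. WT-TRAMP mice carried normal Elac2, the gene of the nuclease that trims the 3′ ends of tRNA precursors. KO-TRAMP mice lacked Elac2 in prostate epithelium only, through Pb-Cre and a floxed exon 8 on both alleles, so that other cells of the lobes kept the gene. A537T-TRAMP mice carried the homozygous Ala537Thr substitution, made by CRISPR, in every cell of the body. The strain is labelled C56NL/6N in all groups.

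ErbB receptors sit in the plasma membrane and pair with each other when a ligand binds. ERBB2 has no known ligand of its own and acts as a partner, ERBB3 has a weak kinase and signals by recruiting PI3K, and EGFR and ERBB4 are active kinases with ligands of their own. The ligands are made as membrane-bound precursors that are released by cleavage. EGF, TGF-alpha and amphiregulin bind EGFR, whereas betacellulin, HB-EGF and epiregulin bind EGFR and ERBB4, and the neuregulins bind ERBB4, some of them ERBB3 as well. In the prostate these receptors feed the ERK and PI3K pathways, and the EGFR ligands are known growth factors of prostatic epithelium.

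The libraries held between 9380174 and 14830104 reads assigned to genes. They are named here by the numbers in the table headers: 1 to 3 for WT-TRAMP, 4 to 6 for A537T-TRAMP and 7 to 9 for KO-TRAMP at 10 weeks, and 10 to 12 for WT-TRAMP, 13 to 15 for A537T-TRAMP and 16 to 18 for KO-TRAMP at 30 weeks. Each line was compared with WT-TRAMP mice of its age within 1 table, so both lines share the same 3 WT-TRAMP libraries at each age. Elac2 itself was at 85.6% of the WT-TRAMP mean in KO-TRAMP and 94.3% in A537T-TRAMP mice at 10 weeks, and at 87.1% and 103% at 30 weeks, and the groups overlapped in all 4 comparisons (exact permutation test, two-sided, p = 0.2, 0.5, 0.2 and 0.8), so the level of its transcript does not check the labels. All 10 markers on a list for prostate luminal epithelium were detected in every library. Some libraries stood apart in their makeup. Seminal vesicle secretory genes took 9.05% of reads in A537T-TRAMP library 5, over 1% in library 6, 1.63% in KO-TRAMP library 9, 4.35% and 1.90% in WT-TRAMP libraries 10 and 12, and 5.45% and 2.65% in A537T-TRAMP libraries 13 and 15. The summed level of 7 neuroendocrine markers was 1451 and 900 CPM (counts scaled to the depth of the library) in KO-TRAMP libraries 17 and 18, against 0.356 CPM in library 16 of the same group and 0.409 to 100 CPM in the WT-TRAMP mice of that age.

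Of the 10 genes, 8 had a mean normalized count of at least 10 in every comparison and were tested. Areg and Ereg did not reach that mean in any table. No member passed an adjusted p of 0.05 in limma in any of the 4 comparisons. Erbb2, Erbb4 and Egf are the members whose 3 mutant mice all lay below the 3 WT-TRAMP mice in some comparison, and the sequence before their start sites is shown for that reason. The windows run from 250 to 51 bases before the RefSeq start (GRCm38.p6, 5′ to 3′ on the strand of the gene), with each CG dinucleotide in capitals.
Erbb2 (chr11:98412234-98412433, plus strand): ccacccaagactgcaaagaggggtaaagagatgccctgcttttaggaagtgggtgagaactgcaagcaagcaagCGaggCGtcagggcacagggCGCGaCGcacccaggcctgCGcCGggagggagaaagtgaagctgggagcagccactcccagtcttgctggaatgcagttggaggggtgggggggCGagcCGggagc
Erbb4 (chr1:69108110-69108309, minus strand): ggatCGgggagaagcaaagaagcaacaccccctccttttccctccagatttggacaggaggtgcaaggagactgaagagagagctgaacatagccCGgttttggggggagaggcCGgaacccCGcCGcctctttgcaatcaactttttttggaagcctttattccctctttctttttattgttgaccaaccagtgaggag
Egf (chr3:129755373-129755572, minus strand): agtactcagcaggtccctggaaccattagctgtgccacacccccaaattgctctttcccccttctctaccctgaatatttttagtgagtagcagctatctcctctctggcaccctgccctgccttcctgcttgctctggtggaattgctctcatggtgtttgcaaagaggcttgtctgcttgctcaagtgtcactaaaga

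The window of Erbb2 held 9 CG dinucleotides and 63.5% G and C, that of Erbb4 held 5 and 51.5%, and that of Egf held 0 and 50.5%, against medians of 4 CG dinucleotides and 51.5% over all 32851 windows of the table. A second RefSeq start of Egf had a window with 10 CG dinucleotides. The letters of the GC box (GGGCGG), the AP-2 motif (GCCNNNGGC), the androgen receptor half-site (AGAACA), an E-box (CAGCTG) and the AP-1 motif (TGANTCA), searched on both strands, were not found in these 3 windows. They occur in 24.6%, 10.6%, 13.2%, 10.3% and 5.57% of all windows. Among the 7 members with a window, the Tgfa window held 1 GC box and 1 AP-2 match and the Areg window held 1 E-box.

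The receptor genes differed in level by several fold. Levels of different genes were compared per length, as reads per base of the merged exons scaled to the same total in every library, and this TPM-like level is used for that purpose only. Erbb3 (ENSMUSG00000018166.8, chr10:128567523-128589652) was the most abundant receptor, with a median of 50.7 TPM over the 18 libraries and a median of 50.5% of the summed receptor level, from 42.5% to 56.5%. Erbb2 (ENSMUSG00000062312.5, chr11:98412470-98437716) made up a median of 31.5%, from 23.9% to 36.4%. Erbb4 (ENSMUSG00000062209.15, chr1:68032186-69108059) made up 9.86%, from 5.24% to 16.3%, and Egfr (ENSMUSG00000020122.16, chr11:16752203-16918158) 7.85%, from 5.98% to 12.1%. The ERBB3 and ERBB2 transcripts thus exceeded those of Egfr in each of the 18 libraries. In WT-TRAMP mice at 10 weeks the TPM-like level of Erbb3 was 51.0 ± 3.76 (SD, n = 3), that of Erbb2 38.3 ± 3.27, that of Erbb4 13.7 ± 2.91 and that of Egfr 7.23 ± 0.356. At 30 weeks these were 54.9 ± 9.88, 34.8 ± 1.61, 11.2 ± 2.90 and 8.49 ± 2.56, with the ranges of Erbb4 and Egfr overlapping. In both mutant lines at 30 weeks Egfr stood above Erbb4, and the ranges of this pair overlapped in both groups.

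Egf was the leading ligand of the 6 in every library. Its precursor, ENSMUSG00000028017.7 (chr3:129677565-129755316), accounted for a median of 84.4% of the summed level of these 6 ligands, neuregulins not counted, with a range of 61.6% to 86.4%. Tgfa (ENSMUSG00000029999.14, chr6:86195223-86275719) followed at 7.49%, from 6.16% to 27.3%, the highest share being in KO-TRAMP library 17. Hbegf (ENSMUSG00000024486.6, chr18:36504927-36515805) stood at 5.28% and Btc (ENSMUSG00000082361.6, chr5:91357261-91402994) at 2.21%. Areg (ENSMUSG00000029378.5, chr5:91139599-91148432) and Ereg (ENSMUSG00000029377.5, chr5:91074622-91093646), neighbours on chromosome 5, were at 0.177% and 0.047%. In WT-TRAMP mice at 10 weeks the TPM-like level was 45.8 ± 4.07 (SD, n = 3) for Egf, 3.59 ± 0.0435 for Tgfa, 3.24 ± 1.28 for Hbegf and 1.21 ± 0.592 for Btc. Where Egf stands among the receptors depends on the length assigned to it, since its merged exons span 11275 bases and its longest protein-coding transcript 4761. With merged exons the mean of Erbb3 led in every group but KO-TRAMP at 30 weeks, and with the longest protein-coding transcript Egf led in all 6 groups. With merged exons the ranges of Erbb3 and Egf overlapped in WT-TRAMP mice at both ages and in both mutant lines at 30 weeks. With the longest transcript they overlapped in A537T-TRAMP mice at 10 weeks and KO-TRAMP mice at 30 weeks. The order of Tgfa and Hbegf depends on length as well. With the longest protein-coding transcript Hbegf stood above Tgfa in WT-TRAMP and KO-TRAMP mice at 10 weeks. The ranges of the pair overlapped in both groups with either length.

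**Figure D1:**
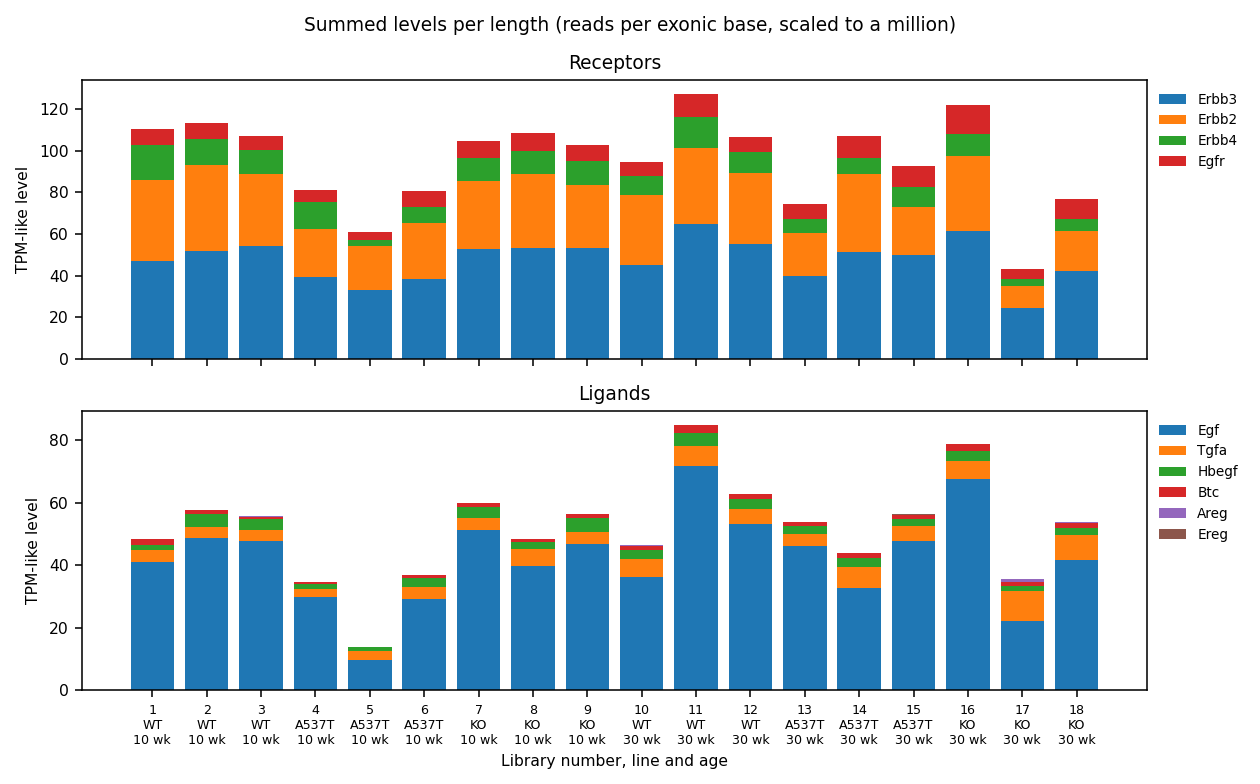
Stacked bars give the TPM-like level (reads per exonic base scaled to the same total in every library, linear axis from 0) of the 4 receptors and the 6 ligands in each of the 18 libraries. Erbb3 and Erbb2 fill most of each receptor bar and Egf most of each ligand bar. The lowest receptor sum drawn is 43.3 TPM in KO-TRAMP library 17 and the lowest ligand sum drawn 13.9 TPM in A537T-TRAMP library 5. Bars come from tables normalized separately for each line and age, with WT-TRAMP taken from the KO-TRAMP table of its age. Heights are therefore comparable only between WT-TRAMP and KO-TRAMP of 1 age, or within A537T-TRAMP of 1 age. Processed with A537T-TRAMP, WT-TRAMP libraries 1 to 3 have receptor sums of 94.1, 97.0 and 91.5 TPM, against the 110, 113 and 107 TPM drawn.

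Areg and Ereg were close to the limit of detection. Areg had 0 to 13 reads per library and Ereg 0 to 6, and each had 0 reads in 8 of the 18 libraries, where a count of 0 allows up to 0.214 to 0.32 CPM depending on depth (3 reads, counting error only). At 30 weeks Ereg had 0, 1 and 0 reads in WT-TRAMP libraries 10, 11 and 12 and 6, 5 and 4 reads in KO-TRAMP libraries 16, 17 and 18. The groups did not overlap, with KO-TRAMP higher. This held for 10.8% of the genes tested in that comparison, which have higher counts and do not include Ereg. The ratio of summed reads per depth was 13.4 with an exact 95% counting interval from 2.06 to 564. Areg had 1, 2 and 1 reads against 0, 13 and 4 in the same mice, a ratio of 3.80 with an interval from 1.24 to 15.5, with most of the KO-TRAMP reads in library 17. The intervals take the recovered reads, which are estimates, as raw reads. They cover counting error and not the spread between mice, and neither gene reached the mean needed for the test. Without that filter limma tested all 10 members in KO-TRAMP mice at 30 weeks. Of these 0 passed the adjusted p and 1 had an unadjusted p under 0.05, against 3049 of 28663 genes. At 10 weeks both genes had 3 reads or fewer in total in each group.

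At 10 weeks Erbb2 was lower in KO-TRAMP than in WT-TRAMP mice in every mouse. Its normalized count, the read count divided by the size factor of the library, was 1668, 1898 and 1618 for WT-TRAMP (libraries 1 to 3) and 1329, 1542 and 1229 for KO-TRAMP (libraries 7 to 9). The KO-TRAMP mean was 79.1% of the WT-TRAMP mean, a log2 fold change of -0.34 (SE 0.12), and it did not pass the test, with an adjusted p of 0.716 in limma. Erbb4 was 1718, 1375 and 1264 in WT-TRAMP and 1095, 1151 and 1098 in KO-TRAMP mice, again without overlap. Its mean was 76.7% of WT-TRAMP, a log2 fold change of -0.37 (SE 0.13, adjusted p = 0.716 in limma), and the 3 KO-TRAMP mice lay closer together than the 3 WT-TRAMP mice.

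The other members overlapped between KO-TRAMP and WT-TRAMP mice at 10 weeks. Egfr was 709 ± 41.0 (SD, n = 3) in WT-TRAMP and 743 ± 60.1 in KO-TRAMP mice, and Erbb3 2661 ± 313 and 2557 ± 101. Among the ligands Egf was 4489 ± 592 and 4135 ± 406, and Tgfa 202 ± 8.12 and 226 ± 52.6. Btc was 46.7 ± 20.6 and 40.5 ± 4.89, and Hbegf 137 ± 58.1 and 133 ± 42.2. The 95% confidence interval of the log2 fold change ran from -0.18 to 0.31 for Egfr and from -0.30 to 0.20 for Erbb3, and it was wider for Btc, at -0.91 to 0.67, and Hbegf, at -0.86 to 0.87.

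Of the 8 tested members, 0 passed the adjusted p in KO-TRAMP mice at 10 weeks in limma, edgeR or DESeq2, where limma called 0.0129% of the 15451 genes tested. At an unadjusted p under 0.05 each of the 3 tools called 2, and in limma these were Erbb2 and Erbb4, both lower, against 6.64% of all genes in either direction and 2.93% lower. The same 2 were the members without overlap, against 12.0% of all genes in either direction and 6.26% lower. The median log2 fold change of the members was -0.08 and that of all genes tested -0.0060, with 5 of 8 members below 0 against 51.1% of all genes. Neither had an unadjusted p under 0.05 without library 7 or without library 9, and 1 of them did without library 1 or without library 2. Without library 9, the KO-TRAMP library with over 1% seminal vesicle reads, Erbb2 was at -0.27 and Erbb4 at -0.36 on the log2 scale. With 3 mice against 3 an exact permutation test of 1 gene cannot go below p = 0.1, which both genes reached. Smooth muscle markers were higher in KO-TRAMP mice for 8 of 8 genes, 4 of them without overlap, with a summed level of 822 to 1304 CPM against 447 to 729 CPM. Seminal vesicle markers were higher for 8 of 8 tested genes, 4 without overlap, with sums of 9.06, 522 and 16286 CPM in libraries 7 to 9 against 1.83 to 4.59 CPM, and fibroblast markers for 8 of 8 genes, 0 without overlap, at 338 to 510 against 271 to 413 CPM. Their part in these values was not tested.

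At 10 weeks in A537T-TRAMP mice Erbb2 was again below WT-TRAMP, in comparison with the same 3 WT-TRAMP libraries. The normalized count was 1448, 1651 and 1399 in libraries 1 to 3 and 992, 1257 and 1282 in A537T-TRAMP libraries 4 to 6. The groups did not overlap, the mean was 78.5% of WT-TRAMP, and the log2 fold change was -0.35 (SE 0.15, adjusted p = 0.60 in limma). Egf, the main ligand, was 3442, 4397 and 4327 in WT-TRAMP mice and 2813, 1263 and 3016 in A537T-TRAMP mice. It was at 58.3% of WT-TRAMP, a log2 fold change of -0.87 (SE 0.33, adjusted p = 0.60 in limma). Library 5 was the lowest for Egf, and without it the log2 fold change of Egf was -0.47 and that of Erbb2 -0.41.

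Library 5 was also the lowest of its comparison for Erbb4, at 450 against 1363 and 861 in libraries 4 and 6 and 1457, 1168 and 1069 in WT-TRAMP mice. The same held for Btc, at 3.32 against 28.5 and 33.3 in the other A537T-TRAMP libraries and 61.1, 38.0 and 25.3 in WT-TRAMP mice. Erbb4 had a log2 fold change of -0.59 ± 0.37 and Btc of -1.29 ± 0.82 (SE), and without library 5 these were -0.17 and -0.33. Tgfa, in contrast, was 198 in library 5, between 130 and 227 in libraries 4 and 6, and its mean was 104% of WT-TRAMP. Egfr was at 99.3%, Erbb3 at 90.2% and Hbegf at 69.3% of the WT-TRAMP mean, with overlapping groups.

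In this comparison 0 of 8 tested members passed the adjusted p in limma, edgeR or DESeq2, where limma called 0.00648% of the 15438 genes tested. At an unadjusted p of 0.05 limma called 2 members, Erbb2 and Egf, both lower, against 7.89% of all genes in either direction and 2.82% lower, edgeR 0 and DESeq2 2. The limma count was 0 without WT-TRAMP library 2 or without library 3, and 1 with TMM scaling. The same 2 did not overlap, against 13.4% of all genes in either direction and 6.53% lower. The median log2 fold change of the members was -0.42 and that of all genes -0.0078, with 7 of 8 members below 0 against 50.9% of all genes. Seminal vesicle markers were higher in A537T-TRAMP mice for 9 of 9 genes, 8 of them without overlap, with sums of 487 to 90527 CPM against 1.83 to 4.59 CPM, and smooth muscle markers for 8 of 8 genes, all without overlap, at 1091 to 2628 against 447 to 729 CPM. Luminal epithelium markers summed to 3555, 2054 and 3201 CPM in libraries 4 to 6, against 3516 to 3711 CPM in WT-TRAMP mice. Of these 10 markers 3 were higher in A537T-TRAMP mice, 1 without overlap, and 1 was lower without overlap. The part of these lists in the members' values was not tested. With libraries 5 and 6 left out, A537T-TRAMP library 4 alone gave log2 fold changes of -0.59 for Erbb2, -0.52 for Egf and 0.16 for Erbb4. In lobes analysed whole, fewer epithelial cells and less RNA per cell cannot be told apart.

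**Figure D2:**
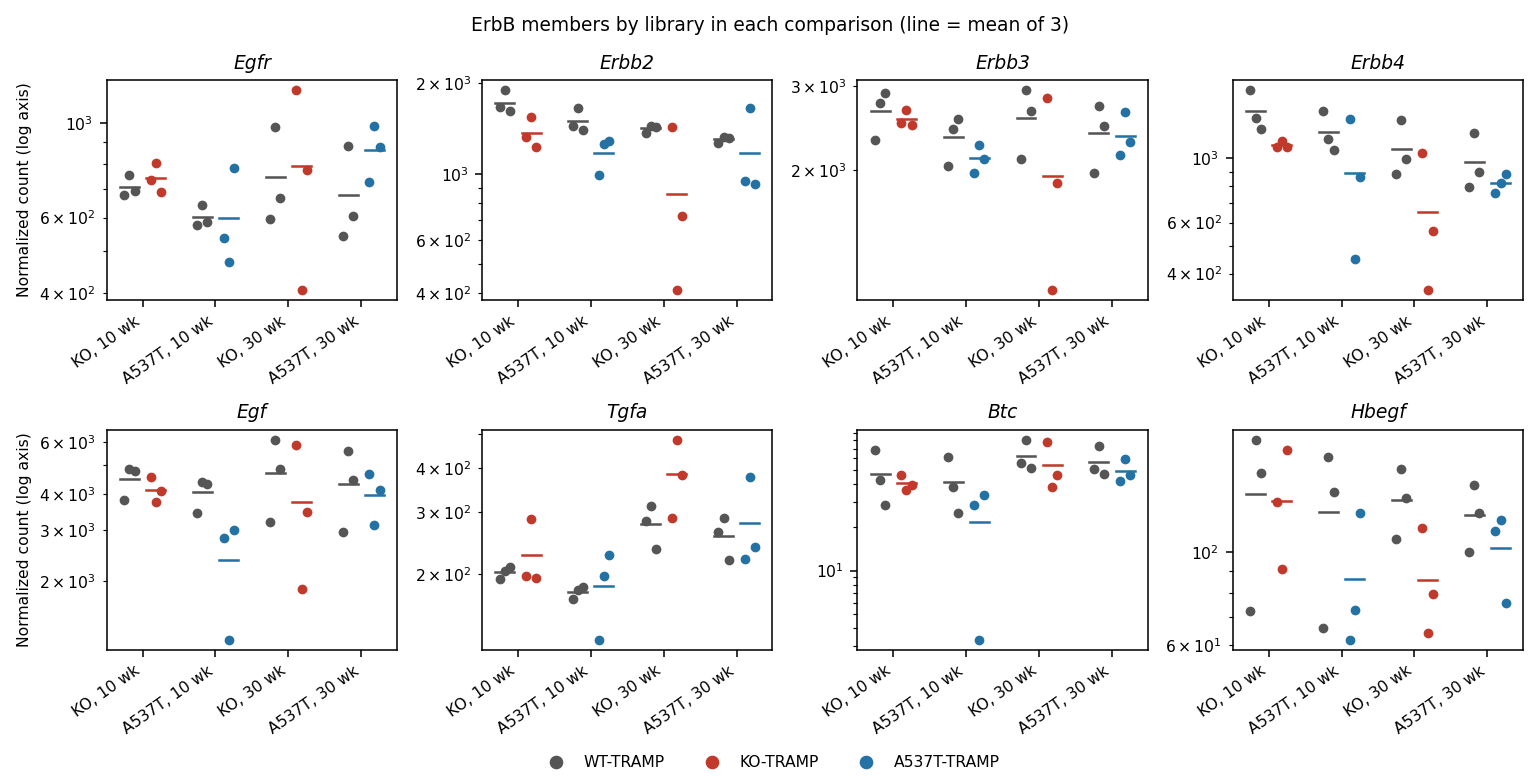
Points give the normalized count (log axis) of each tested member in each library, with WT-TRAMP in grey, KO-TRAMP in red and A537T-TRAMP in blue, and short lines give the mean of 3. At 10 weeks the Erbb2 points of both lines lie below those of WT-TRAMP, and at 30 weeks the KO-TRAMP points spread from 410 to 1434 for Erbb2 against WT-TRAMP points of 1371 to 1444.

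At 30 weeks the SD of each receptor was larger among KO-TRAMP than among WT-TRAMP mice. Erbb2 was 1371, 1444 and 1435 for WT-TRAMP (libraries 10 to 12) and 1434, 410 and 722 for KO-TRAMP (libraries 16 to 18). Library 16 lay within the WT-TRAMP range, and libraries 17 and 18 lay below it. The log2 fold change was -0.91 (SE 0.43, adjusted p = 0.394 in limma), with a 95% confidence interval from -1.95 to 0.13. Erbb4 was 880, 1355 and 993 in WT-TRAMP and 1042, 351 and 561 in KO-TRAMP mice, a log2 fold change of -0.84 (SE 0.40, adjusted p = 0.399 in limma). Erbb3 was 2113, 2942 and 2666 against 2840, 1120 and 1880, with a log2 fold change of -0.49 ± 0.34. Libraries 17 and 18 were again the lowest. Egfr was 596, 978 and 667 against 1192, 406 and 776, so that library 17 was the lowest and library 16 the highest of the 6, and the log2 fold change was -0.02 ± 0.41.

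Among the ligands at 30 weeks, Egf was 3200, 6117 and 4850 in WT-TRAMP and 5872, 1885 and 3470 in KO-TRAMP mice, with a log2 fold change of -0.44 ± 0.45 (SE). Tgfa went the other way, at 282, 313 and 236 against 289, 480 and 383, a log2 fold change of 0.45 (SE 0.22, adjusted p = 0.40 in limma). Its highest values were in libraries 17 and 18, in which Erbb2, Erbb3 and Erbb4 were below the WT-TRAMP range, while Egf and Egfr were below it in library 17 alone. Hbegf was 107, 157 and 135 against 114, 64.1 and 79.4, a log2 fold change of -0.65 (SE 0.28, adjusted p = 0.374 in limma). Btc was 56.0, 80.6 and 51.3 against 78.2, 37.9 and 45.9, with overlapping groups.

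None of the 8 tested members passed the adjusted p in KO-TRAMP mice at 30 weeks in limma, edgeR or DESeq2, and none had an unadjusted p under 0.05 in the 3 tools, where limma called 0.213% of 16900 genes by adjusted and 13.5% by unadjusted p. None of the 8 was without overlap, against 20.2% of all genes. The median log2 fold change of the members was -0.46 and that of all genes 0.010, with 7 of 8 members below 0 against 49.1% of all genes. Without library 16, limma called 2 members, Erbb2 at -1.38 (adjusted p = 0.024) and Erbb4 at -1.25 (adjusted p = 0.036), while calling 3064 of 16950 genes. KO-TRAMP library 16 alone against the 3 WT-TRAMP libraries gave log2 fold changes of 0.02 for Erbb2, -0.02 for Erbb4, 0.36 for Egf and 0.07 for Tgfa, as values from 1 mouse. Against WT-TRAMP library 11 alone, without libraries 10 and 12 with their seminal vesicle reads, the log2 fold change was -0.94 for Erbb2, -1.20 for Erbb4 and -0.44 for Egfr, where the WT-TRAMP side is 1 mouse.

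Neuroendocrine markers were far higher in libraries 17 and 18 than in the other libraries of this age, as given above, although all 7 were also detected in WT-TRAMP libraries 10 and 12, at 100 and 48.4 CPM, against 3 in library 16 and 3 in WT-TRAMP library 11. The mean log2 difference of the 10 luminal epithelium markers from the WT-TRAMP mean was -1.30 in library 17, -0.82 in library 18 and -0.32 in library 16, and that of Erbb2 was -1.78, -0.97 and 0.02. The summed level of these 10 markers was within the WT-TRAMP range of 2775 to 3550 CPM in all 3 KO-TRAMP mice, at 2945, 3154 and 3452 CPM in libraries 17, 18 and 16, and 3 of the 10 were higher in KO-TRAMP mice, 1 without overlap, and 7 lower, 3 without overlap. Fibroblast markers were higher for 8 of 8 genes without overlap, 3 past the adjusted p, with sums of 1980, 1669 and 1835 CPM in libraries 16 to 18 against 379 to 440 CPM. Macrophage markers summed to 390, 349 and 384 CPM in the same libraries against 130 to 157 CPM. The fibroblast and macrophage sums were highest in library 16, where Erbb2 was at the WT-TRAMP level. Basal epithelium markers differed from these, at 225 and 160 CPM in libraries 17 and 18 against 39.1 CPM in library 16 and 38.9 to 39.8 CPM in WT-TRAMP mice. Of these 6 markers 5 were higher, 0 without overlap, and 1 was lower without overlap. Endothelium markers were higher for 7 of 7 genes, 6 without overlap, with sums of 63.4 to 316 against 37.6 to 48.5 CPM. The part of these lists in the members' values was not tested.

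**Figure D3:**
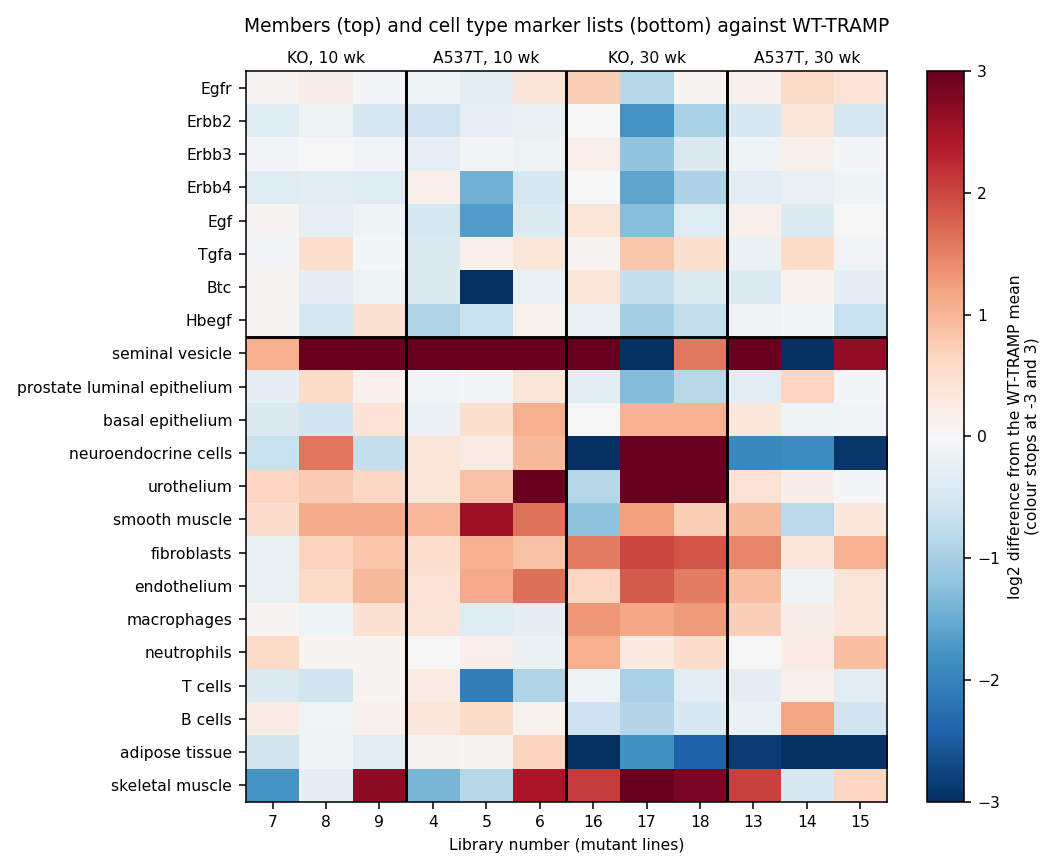
Colours give the log2 difference of each mutant library from the mean of the 3 WT-TRAMP libraries of its table, for the 8 tested members in the upper block and the mean over each marker list in the lower block, with colours ending at -3 and 3. Erbb2, Erbb3, Erbb4 and Egf are lowest in KO-TRAMP library 17, at -1.78, -1.19, -1.59 and -1.27, apart from Egf in A537T-TRAMP library 5 at -1.67.

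At 30 weeks in A537T-TRAMP mice the mean of each tested member lay between 83.4% and 127% of the WT-TRAMP mean. Egfr was 544, 884 and 604 in WT-TRAMP and 727, 984 and 878 in A537T-TRAMP mice, at 127% of the WT-TRAMP mean, a log2 fold change of 0.37 (SE 0.20, adjusted p = 0.735 in limma). The highest WT-TRAMP mouse, library 11, overlapped the A537T-TRAMP group. Erbb2 was 1267, 1325 and 1316 against 948, 1653 and 926, so that library 14 lay above and libraries 13 and 15 below the WT-TRAMP mice. Erbb3 was at 98.8% and Erbb4 at 84.5% of the WT-TRAMP mean. Egf was at 91.7%, Tgfa at 109%, Btc at 86.5% and Hbegf at 83.4%. In limma, edgeR and DESeq2 0 of 8 members passed the adjusted p and 0 had an unadjusted p under 0.05, where limma called 0.0% of 16261 genes by adjusted and 7.21% by unadjusted p. None of the members was without overlap, against 13.4% of all genes. Their median log2 fold change was -0.15, with 6 of 8 below 0 against 50.0% of all genes. Fibroblast markers were higher for 8 of 8 genes in these mice, 4 without overlap, and the 5 tested adipose markers were all lower without overlap, and their part in the members' values was not tested.

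**Figure D4:**
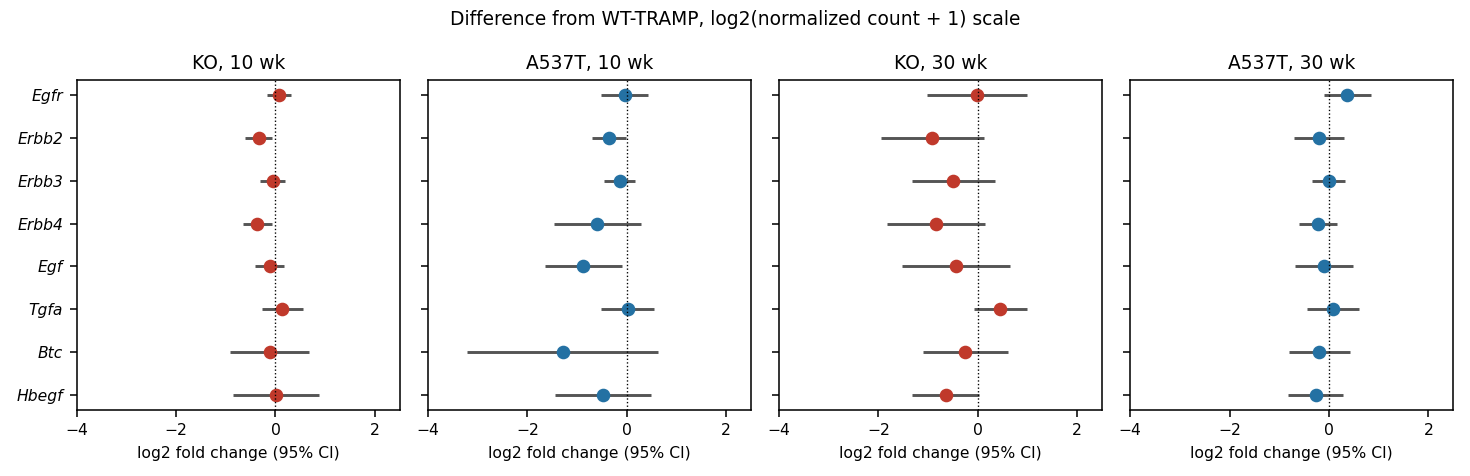
Points give the log2 fold change against WT-TRAMP on the log2(normalized count + 1) scale and bars its 95% confidence interval, for 8 members in 4 comparisons of 3 against 3 mice. The interval lies below 0 for Erbb2 and Erbb4 in KO-TRAMP and for Erbb2 and Egf in A537T-TRAMP mice at 10 weeks, before adjustment over all genes, and the widest interval is that of Btc in A537T-TRAMP mice at 10 weeks, from -3.21 to 0.63.

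Whether the effect of each line differed between ages was tested as an interaction. In both lines 0 members passed in limma, edgeR or DESeq2, with 0 at an unadjusted p under 0.05, where limma called 0.0% of genes by adjusted p in either line and by unadjusted p 13.1% for KO-TRAMP and 6.36% for A537T-TRAMP mice. In KO-TRAMP mice the effect on Erbb2 at 30 weeks minus that at 10 weeks was -0.57 ± 0.47 (SE, log2) and that on Tgfa 0.31 ± 0.29. The median over the 8 members was -0.38, against 0.0025 over all genes tested. In A537T-TRAMP mice the difference was 0.77 ± 0.45 for Egf and 0.41 ± 0.30 for Egfr, with a median of 0.29 against 0.0053. The 10-week side of this line includes library 5, the lowest of its comparison for Egf, Erbb4 and Btc. The members come from the same mice, so their differences are not separate observations. Without library 16 the difference for Erbb2 in KO-TRAMP mice was -1.04 (limma adjusted p = 0.033) in a fit that called 1944 of 16456 genes, and with library 16 as the only KO-TRAMP mouse at 30 weeks it was 0.36.

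Other genes of the pathway were taken from 5 lists holding 59 genes, namely the remaining ErbB ligands, the proteases and cofactors that release ligands, the brakes that remove or inhibit receptors, the adaptors and kinases of the ERK and PI3K routes, and genes known to respond to ERK. In limma 0 of 53, 55, 57 and 56 tested genes passed the adjusted p, the counts being for the KO-TRAMP and then the A537T-TRAMP line at 10 weeks, followed by the same lines at 30 weeks, and 1, 5, 8 and 5 had an unadjusted p under 0.05, against the shares of all genes given above. By adjusted p edgeR called 0 in each, and DESeq2 called 1, Dusp4 in A537T-TRAMP mice at 10 weeks, and by unadjusted p edgeR called 1, 4, 8 and 5 and DESeq2 1, 5, 10 and 5. Over all genes DESeq2 called 83, 148, 805 and 166 by adjusted and 1053, 1588, 3108 and 1340 by unadjusted p, and edgeR 0, 0, 15 and 0 and 1068, 1363, 2643 and 1382, in the same order. The medians over the 5 lists together were -0.035, 0.090, -0.011 and 0.022.

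Neuregulin genes gave the lowest unadjusted p among these genes in KO-TRAMP mice at each age. Nrg4, whose product binds ERBB4, had normalized counts of 0, 7.50 and 3.30 in WT-TRAMP and 21.6, 21.5 and 24.8 in KO-TRAMP mice at 10 weeks. Its groups did not overlap, as for 12.0% of all genes in either direction, and its log2 fold change was 2.83 (SE 0.81, adjusted p = 0.716 in limma). At 30 weeks its log2 fold change in KO-TRAMP mice had the other sign, at -1.33 (SE 0.62, adjusted p = 0.391 in limma). The difference between ages was -4.15 (SE 1.07) with an adjusted p of 0.228 in limma and 0.232 in edgeR, and DESeq2 called it, with an adjusted p of 0.017, while calling 389 of 16431 genes. In A537T-TRAMP mice Nrg4 was tested at 30 weeks only, at -0.50 (SE 0.47). Nrg1, which binds ERBB3 and ERBB4, was 152, 215 and 194 in WT-TRAMP and 139, 80.2 and 76.2 in KO-TRAMP mice at 30 weeks, a log2 fold change of -0.96 (SE 0.29, adjusted p = 0.327 in limma). As for Erbb2, libraries 17 and 18 were the lowest. Nrg2 was 8.84, 8.06 and 7.07 in WT-TRAMP and 17.9, 52.0 and 22.9 in A537T-TRAMP mice at 10 weeks, a log2 fold change of 1.69 (SE 0.51, adjusted p = 0.60 in limma), highest in library 5.

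Among the genes that release ligands, Adam9 was 0.15 in KO-TRAMP mice at 10 weeks and 0.30 in A537T-TRAMP mice at 30 weeks on the log2 scale, and Adam17, the main sheddase of TGF-alpha and amphiregulin, was 0.30 in KO-TRAMP mice at 30 weeks. Adam12 was 1.77 in A537T-TRAMP mice at 10 weeks, from a WT-TRAMP mean of only 6.31. Of the brakes, Lrig1, which promotes degradation of ErbB receptors, was 274, 264 and 286 in WT-TRAMP and 347, 345 and 378 in KO-TRAMP mice at 30 weeks. Its log2 fold change was 0.37 (SE 0.11, adjusted p = 0.327 in limma), and all 3 KO-TRAMP mice, library 16 included, lay above WT-TRAMP. Of all genes tested in that comparison 10.8% did so, and Lrig1 is named for the smallest p among the brakes. The ubiquitin ligase gene Cbl was 1326, 1616 and 1513 against 1129, 1316 and 1187 in A537T-TRAMP mice at 30 weeks, a log2 fold change of -0.29 (SE 0.11, adjusted p = 0.684 in limma). Lrig2 in KO-TRAMP and Lrig3 in A537T-TRAMP mice at 10 weeks were -0.29 and -0.48.

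Of the adaptors and kinases, Nras had a log2 fold change of -0.21 in KO-TRAMP mice at 10 weeks and 0.38 (SE 0.12, adjusted p = 0.327 in limma) at 30 weeks, where it was 777, 831 and 932 in WT-TRAMP and 1018, 1182 and 1109 in KO-TRAMP mice. Gab1, a docking protein of EGFR signalling, was -0.39 in A537T-TRAMP mice at 10 weeks and Hras 0.27 at 30 weeks. Among the genes that respond to ERK, Dusp4, an ERK phosphatase, was 2.41, 3.45 and 1.01 in WT-TRAMP and 7.33, 475 and 33.3 in A537T-TRAMP mice at 10 weeks, highest in library 5, with a log2 fold change of 4.04 ± 1.36 (SE). Dusp6 was 0.59 in KO-TRAMP and Ier3 0.61 in A537T-TRAMP mice at 30 weeks, and Spry1 was -0.39 in KO-TRAMP mice at 10 weeks.

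**Figure D5:**
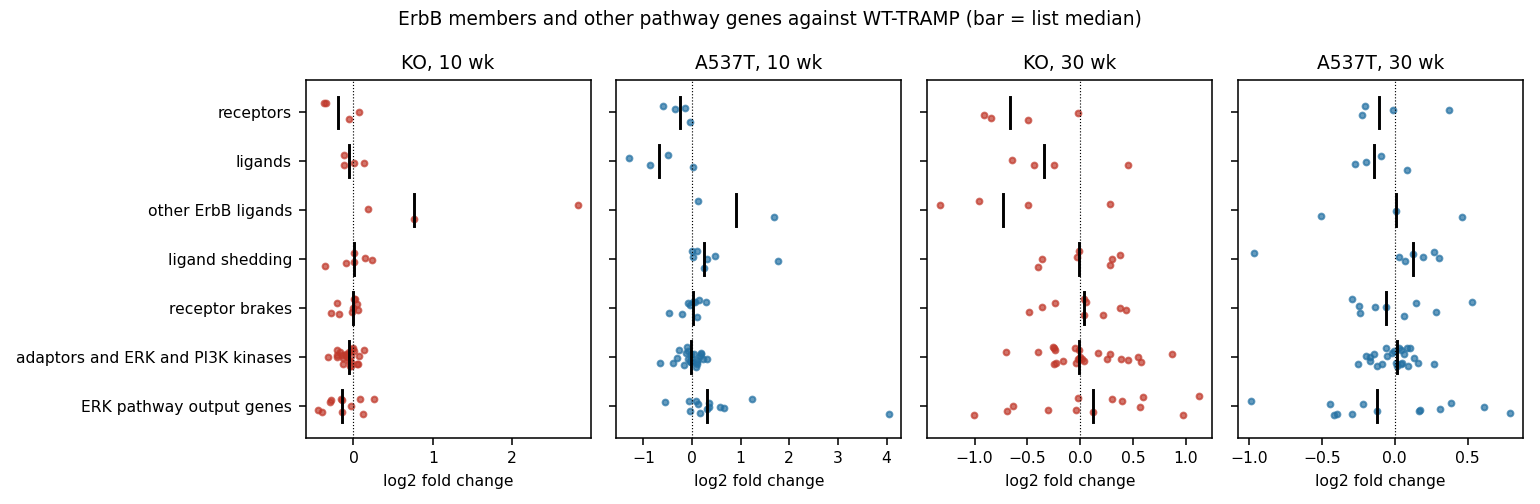
Points give the log2 fold change against WT-TRAMP of each tested receptor, ligand and other pathway gene (axes differ between panels) and black bars the median of each list. The receptors' median is -0.67 in KO-TRAMP mice at 30 weeks, whereas the brakes, the adaptors and kinases, and the genes that respond to ERK lie on both sides of 0 in all 4 comparisons.

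The genes whose CPM ran most like that of each member over the 18 libraries were found among 11114 genes by Pearson's r on the log2(CPM + 1) scale, as a description without a test, since the points share libraries, depth and WT-TRAMP mice and come from tables normalized separately. Erbb4 was most like Unc13b (r = 0.965), Eif2d (0.961) and Pmm2 (0.960). These 3 values were 0.95, 0.941 and 0.938 without libraries 17 and 18. Erbb3 was most like Arhgef5 (0.954), Blnk (0.946) and Sema4a (0.940), and Erbb2 was most like Prkca (0.930), Gdpgp1 and Mroh1 (both 0.922). Without libraries 17 and 18 the r of Erbb3 with Arhgef5 was 0.828 and that of Erbb2 with Prkca 0.777. Egfr was most like Sbno2 (0.890), Ctnna1 (0.886) and Runx1 (0.884). Among the ligands Egf ran most like Liph (0.95), Tgfa like Flot2 (0.932), Btc like H6pd (0.921) and Hbegf like Klf3 (0.877). Between members, the r of Erbb2 with Erbb3 was 0.874 over 18 libraries and 0.589 without libraries 17 and 18, and that of Erbb2 with Tgfa was -0.49 and 0.28.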

How the data were processed

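Total RNA from the ventral and lateral lobes was sequenced by the authors on a NovaSeq instrument (TruSeq). The authors trimmed reads with Trim Galore 0.4.1 and cutadapt 1.18, aligned them with STAR 2.7.3a to GRCm38.p6 masked for nuclear mitochondrial sequences with GENCODE annotation, quantified them with Salmon, imported them with tximport and scaled them with DESeq2 1.26. Versions are those in the submitters' processing notes. The 4 deposited tables hold normalized counts, a signal in reads divided by a size factor per library, 1 table for each line and age. Whole numbers, called reads here, were recovered from 100% of values (tolerance 1e-06). They sum to 9380174 to 14830104 per library, which sets the precision of low genes. For the same WT-TRAMP library, 30.9% to 37.6% of genes have identical numbers in both tables of an age. For Egfr, 1 table gave 92.1% to 96.8% of the other. The recovered reads are therefore estimates that depend on the table, not raw reads, and levels were tested within a table only. Counting intervals, edgeR and DESeq2 treat them as raw reads. Columns were assigned to lines by the table they stand in, with those shared by both tables of an age taken as WT-TRAMP. The 4 other deposited tables hold the authors' own comparisons and were not used.

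The main test was limma 3.58.1 (R 4.3.3) with trend on log2(normalized count + 1), for genes with a mean of at least 10, adjusted by Benjamini-Hochberg over all genes tested. Fold changes on this scale understate those of low genes. The interaction of line and age was fitted over both ages of a line. edgeR 4.0.16 and DESeq2 1.42.0 on recovered reads, other pseudocounts and scalings, no filter, array weights, each library left out, and libraries with over 1% seminal vesicle reads left out were the alternatives. Tests were checked on simulated data, with changes larger than those of the members and no outlying libraries. That check does not show the power for changes of the size found here. p-values measure the spread between separate mice, 3 per group. Exact permutation tests were two-sided. Lengths came from GENCODE (release in the reference used here, vM21) (GRCm38), 99.5% of identifiers having one, and windows and symbols from RefSeq tables, with 55142 identifiers named and 7 of 10 members having a window. The receptors, ligands, pathway lists and marker lists were chosen with earlier results of these data known. All 10 members are named, and from each pathway list the genes past the threshold and the gene with the smallest p, and the 3 genes most like each receptor and the 1 most like each tested ligand. Nothing is reported of protein or phosphorylation.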

Additional observations from a re-analysis of the deposited data

How the results depend on the processing

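No paired analysis was possible because the labels do not give the litter of a mouse. The table columns carry no replicate numbers either. With array weights limma called 6 members in KO-TRAMP (Egf, Erbb2, Erbb3, Erbb4, Hbegf and Tgfa) and 3 in A537T-TRAMP mice at 30 weeks (Egfr, Erbb2 and Hbegf), 36 and 11 other pathway genes, and 2 members for the age difference in KO-TRAMP mice (Erbb2 and Tgfa), but it also called 10748 of 16900 genes in KO-TRAMP and 3388 of 16261 in A537T-TRAMP mice at 30 weeks, and 5188 of 16431 for the age difference. DESeq2 called 1 other pathway gene, Dusp4, in A537T-TRAMP mice at 10 weeks. Over the fits leaving out each library, the members called in KO-TRAMP mice at 30 weeks ranged from 0 to 2, the other pathway genes from 0 to 10 and the age difference from 0 to 1, each highest without library 16. All other counts stayed at 0. The fit without libraries over 1% seminal vesicle reads could not be made for A537T-TRAMP mice at 30 weeks or their age difference. The fit without libraries 17 and 18 was added after seeing the data and leaves 1 KO-TRAMP mouse, as the seminal vesicle fit leaves 1 A537T-TRAMP mouse at 10 weeks and 1 WT-TRAMP mouse in the KO-TRAMP comparison at 30 weeks, so the lone mouse is assumed to vary like the other group.

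The sign turned for the following log2 fold changes, and the cause was not tested. In KO-TRAMP mice at 10 weeks Hbegf was -0.033 with edgeR, -0.039 with DESeq2 and -0.22 without the seminal vesicle library, and leaving out each library it ran from -0.40 to 0.27, Erbb3 from -0.15 to 0.016, Tgfa from -0.044 to 0.23 and Btc from -0.42 to 0.20. In A537T-TRAMP mice at 10 weeks Egfr was 0.0065 with edgeR, 0.20 with array weights and -0.26 to 0.11 leaving out libraries, and Tgfa ran from -0.14 to 0.25. Without libraries over 1% seminal vesicle reads Erbb4 was 0.16 and Tgfa -0.44. In KO-TRAMP mice at 30 weeks Egfr was 0.091 with edgeR, 0.075 with DESeq2, 0.17 with array weights, -0.38 to 0.40 leaving out libraries and 0.71 without libraries 17 and 18, where Erbb2 was 0.018, Erbb3 0.16, Egf 0.36 and Btc 0.34. In A537T-TRAMP mice at 30 weeks, leaving out libraries, Erbb3 ran from -0.14 to 0.092, Egf from -0.35 to 0.11 and Tgfa from -0.15 to 0.24. Erbb2 and Erbb4 in KO-TRAMP and Erbb2 and Egf in A537T-TRAMP mice at 10 weeks stayed below 0 in all 14 alternatives each. For these genes all mutant mice lay below the WT-TRAMP mice, so the fits that leave out libraries could not turn the sign. Egf and Egfr in KO-TRAMP and Erbb3, Btc and Hbegf in A537T-TRAMP mice at that age also kept their sign. Depth limits Areg and Ereg.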
